A study of Mus musculus with 2 samples.

Results

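Gene-desert peaks are the DNase-seq peaks of the spleen that lie far from any protein-coding gene. DNase I cuts DNA where chromatin is open, and a peak is a stretch where the cuts pile up. A peak was taken as a gene-desert peak when its midpoint lay outside the body of every protein-coding gene and over 100 kb from every protein-coding transcription start site (TSS), in the GENCODE M21 annotation of mm10. Of the 79246 peaks of animal 1, 5055 met the rule, and of the 77231 peaks of animal 2, 5229 did. That is 6.57% ± 0.277 of the peaks (SD, n = 2). The libraries come from the whole spleens of 2 male B6CASTF1/J mice aged 2 months, first-generation hybrids of C57BL/6J and CAST/EiJ, with no allele changed and no treatment given in the labels. Both animals belong to 1 group and there is no second condition, so each value is given per animal and beside the other peaks of the same library. With 2 animals the smallest two-sided exact sign-flip p is 0.5, so such a test cannot pass 0.05 here, and peaks of 1 library are not replicates. A spleen mixes many cell types, so a low peak cannot be told apart as a site open in few cells or one weakly open in many.

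Long stretches without protein-coding genes often surround genes for developmental and cell-identity transcription factors, and some of them hold enhancers that contact a promoter from far away. Others hold few regulatory elements and consist largely of repeats and closed chromatin. CTCF, a zinc finger protein that anchors chromatin loops, also binds between genes, and antigen receptor loci carry long arrays of variable (V) gene segments that are not annotated as protein-coding. The spleen is rich in B cells, T cells and macrophages, whose identity factors include PU.1 and RUNX proteins.

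The sequences of 8 gene-desert peaks show what the sites look like, as the plus strand of the mm10 reference, 5′ to 3′. They are reference sequence of C57BL/6J and may differ on the CAST/EiJ chromosome. The first 4 are the highest peaks matched between the animals, of at most 300 bp, whose median 32-mer occurs once in the genome and that lie over 1 kb from any annotated start, and capitals mark the authors' footprints of animal 1, the short protected stretches where a bound protein shields DNA from the enzyme. They lie at chr10:96751621-96751820 between Btg1 and Dcn, at chr9:116384321-116384520 between Tgfbr2 and Rbms3, at chr10:126511601-126511820 between Lrig3 and Atp23, and at chr1:102628161-102628360 between Cntnap5b and Cdh20.
Btg1 to Dcn: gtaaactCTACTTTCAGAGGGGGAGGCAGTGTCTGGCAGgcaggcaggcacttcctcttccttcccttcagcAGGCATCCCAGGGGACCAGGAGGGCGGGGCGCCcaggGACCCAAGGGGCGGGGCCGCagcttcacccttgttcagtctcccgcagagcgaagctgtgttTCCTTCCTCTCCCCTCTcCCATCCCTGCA
Tgfbr2 to Rbms3, high site: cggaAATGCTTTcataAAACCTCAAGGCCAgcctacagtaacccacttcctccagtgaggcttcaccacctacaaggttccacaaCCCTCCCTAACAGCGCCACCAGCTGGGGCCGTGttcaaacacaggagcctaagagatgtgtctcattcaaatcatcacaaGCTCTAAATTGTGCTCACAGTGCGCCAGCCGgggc
Lrig3 to Atp23: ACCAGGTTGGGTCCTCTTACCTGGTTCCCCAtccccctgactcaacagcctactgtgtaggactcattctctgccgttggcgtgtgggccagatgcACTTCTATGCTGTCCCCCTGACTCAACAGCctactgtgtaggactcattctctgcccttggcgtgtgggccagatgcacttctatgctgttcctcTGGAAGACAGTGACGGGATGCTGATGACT
Cntnap5b to Cdh20: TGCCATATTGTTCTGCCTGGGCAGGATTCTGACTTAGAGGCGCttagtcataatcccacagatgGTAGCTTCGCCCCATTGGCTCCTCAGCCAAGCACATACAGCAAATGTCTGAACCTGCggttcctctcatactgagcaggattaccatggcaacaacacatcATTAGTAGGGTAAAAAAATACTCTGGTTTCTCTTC

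The next 3 are sites that stood far higher in animal 2 than in animal 1, and capitals mark their match to the CTCF consensus, which reads CCA, 2 free bases, AG, 2 free bases and GGC. They lie at chr9:116426361-116426540, at chr11:114523501-114523700 between Sdk2 and Rpl38, and at chr1:184263061-184263220 between Dusp10 and Hlx.
Tgfbr2 to Rbms3, CTCF site: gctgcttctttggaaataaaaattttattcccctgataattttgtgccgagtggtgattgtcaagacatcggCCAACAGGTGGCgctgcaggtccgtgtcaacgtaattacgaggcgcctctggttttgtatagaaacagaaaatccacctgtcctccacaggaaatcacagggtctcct
Sdk2 to Rpl38: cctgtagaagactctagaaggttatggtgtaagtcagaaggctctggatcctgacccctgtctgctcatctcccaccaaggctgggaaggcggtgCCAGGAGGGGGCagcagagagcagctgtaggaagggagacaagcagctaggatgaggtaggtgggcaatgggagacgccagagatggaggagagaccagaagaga
Dusp10 to Hlx: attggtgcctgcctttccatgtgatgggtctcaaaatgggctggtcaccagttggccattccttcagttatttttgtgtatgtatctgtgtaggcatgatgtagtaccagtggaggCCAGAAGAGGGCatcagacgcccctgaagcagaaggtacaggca

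The last one lies 76 bp from the start of an immunoglobulin kappa V segment, at chr6:68302261-68302440, and stood higher in animal 1. Capitals mark the octamer, the element of V segment promoters that OCT factors bind, here read on the minus strand.
Kappa V segment start: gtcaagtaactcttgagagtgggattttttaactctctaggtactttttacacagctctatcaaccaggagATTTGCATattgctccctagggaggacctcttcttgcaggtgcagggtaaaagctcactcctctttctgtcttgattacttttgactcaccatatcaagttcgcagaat

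The labelled tissue was checked at promoters. A promoter peak was present in both animals at all 5 B cell marker genes and at Cd3e, Cd8a and Lck of 4 T cell markers, and Cd4 had none. Of 3 macrophage markers, 3 had one in animal 1 and 2 in animal 2. Of 2 spleen stroma markers, Tlx1 had one in both animals, at 0.473 and 0.557, and Nkx2-5 had none. Neither hepatocyte marker and neither keratinocyte marker had one. Cela1 of 3 acinar markers and Snap25 of 2 neuronal markers had one in both animals. Snap25 had heights of only 0.337 and 0.333, but Cela1 had 3.79 and 5.49. That is above Cd3e, at 0.838 and 0.930, and Cd8a, at 0.652 and 0.876.

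Gene deserts made up much of the genome and held few peaks. The territory that met the rule covered 834 Mb, or 31.5% of the sequenced bases of chromosomes 1 to 19, X and Y. It held 6.06 peaks per Mb in animal 1 and 6.27 in animal 2, against 40.9 and 39.7 per Mb in the rest of the genome. Among the densest were chromosome 10, with 10.3 and 9.76 peaks per Mb, chromosome 13, with 10.8 and 9.17, and chromosome 12, with 8.41 and 9.87. On the same scale the Y had 0.504 and 0.589 per Mb and the X 3.11 and 3.42 per Mb. Outside deserts these chromosomes were low too, with 1.92 and 2.02 per Mb on the Y and 19.0 and 18.8 on the X. Of 1898 gaps between neighbouring protein-coding genes with gene-desert territory, 618 held no gene-desert peak in either animal.

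Gene-desert peaks were low. The height is the authors' signal, whose unit is not stated and which is read here as a density of DNase cuts. Heights below 1 lie within 0.05 steps of a whole multiple of 1 step, 0.00716 in animal 1 and 0.00679 in animal 2. The median gene-desert peak reached 0.444 in animal 1 and 0.435 in animal 2, which is 62 and 64 steps. If a step is 1 cut, the counting error of such a peak is 12.7% and 12.5%. All other peaks had medians of 0.931 and 1.12, so the gene-desert median was 0.432 ± 0.0630 times theirs (SD, n = 2). Intergenic peaks nearer to genes had medians of 0.824 and 0.964, and promoter peaks had medians of 1.73 and 1.97. Of the gene-desert peaks, 77.7% and 81.4% were among the lower 50% of their library by height. They were also narrower, at a median of 173 and 150 bp, against 200 and 180 bp for all other peaks.

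Fewer gene-desert peaks than other peaks had a low FDR or a footprint. A best false discovery rate (FDR) under 0.001 was reached by 52.7% of the gene-desert peaks of animal 1 and 41.9% of those of animal 2, against 71.4% and 69.4% of all peaks. At least 1 footprint lay in 69.0% and 66.4% of them, against 81.4% and 83.5% of all peaks. Repeated sequence was commoner: in 5.64% and 7.10% of gene-desert peaks the median 32-mer occurred more than once in the genome, against 1.94% and 2.19% of all peaks. Where copies exist, a height need not belong to the site named.

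Gene-desert peaks far out were lower than those nearer to genes. At 100 to 200 kb from the nearest coding TSS there were 2700 and 2491 peaks with median heights of 0.516 and 0.591. At 200 to 500 kb there were 1746 and 1877, with medians of 0.401 and 0.387. At 500 to 1000 kb there were 448 and 598, with medians of 0.258 and 0.265, and beyond 1000 kb 161 and 263, with medians of 0.236 and 0.251. The share with a footprint was 74.0% and 76.6% in the nearest of these bins, 49.8% and 45.8% at 500 to 1000 kb and 52.2% and 41.1% in the farthest. The share found in the other animal was 63.1% and 68.5% in the nearest bin and 37.3% and 22.8% in the farthest. Peaks at 100 to 110 kb had median heights of 0.509 and 0.625, and intergenic peaks at 90 to 100 kb, just outside the rule, had 0.609 and 0.655.

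**Figure D1:**
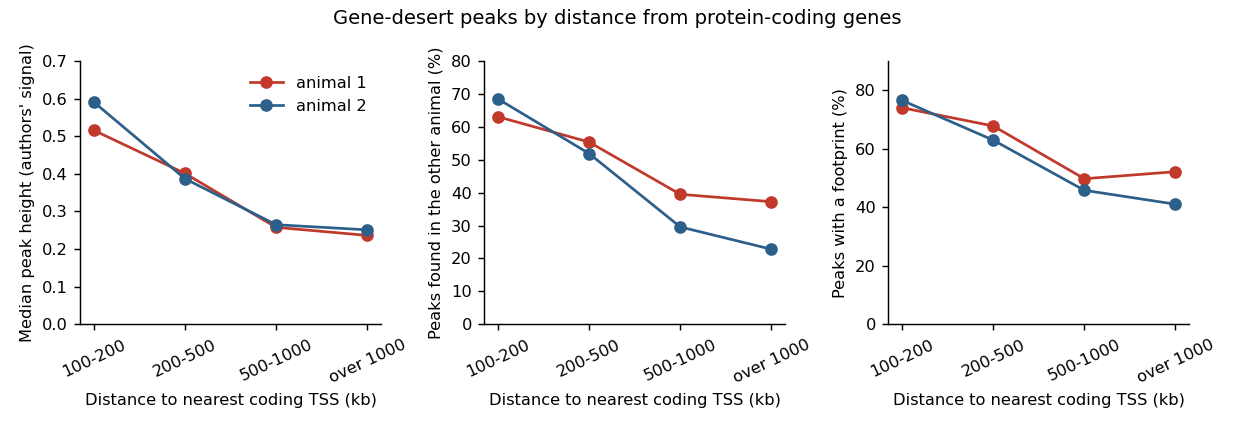
Gene-desert peaks by distance to the nearest protein-coding TSS in kb: median height (authors' signal), percent found in the other animal and percent with a footprint, 1 point per animal and bin. The median height is 0.516 and 0.591 in the nearest bin and 0.236 and 0.251 in the farthest, in animals 1 and 2.

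Many gene-desert peaks were called in 1 animal only. In animal 1, 2907 overlapped by at least 1 bp a peak called in animal 2, or 57.5% (Wilson 95% interval 56.1 to 58.9). In animal 2, 2917 had a counterpart in animal 1, or 55.8% (54.4 to 57.1). The same shares over all peaks were 76.5% and 79%, and over intergenic peaks nearer to genes 75.8% and 79.99%. These intervals cover counting error only. Merged across animals, the peaks formed 7333 sites, of which 2885 were present in both spleens, 2144 in animal 1 only and 2304 in animal 2 only.

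Set beside peaks of like height, gene-desert peaks were shared about as often or more often, apart from the lowest decile in both animals and the 2 highest in animal 2. In the lowest decile of all heights, which holds 1754 and 2210 gene-desert peaks, 20.8% and 14.3% of them were found in the other animal, against 25.97% and 17.9% of intergenic peaks nearer to genes. In the second decile the shares were 48.9% and 63.2%, against 41.9% and 52.8%. In the fifth they were 88.2% and 96.3%, against 83.3% and 91.4%, and from the seventh upward the lowest share of gene-desert peaks was 97.1%, in the highest decile of animal 2, against 99.8% of the nearer ones. Footprints behaved alike, with 31.5% and 34.6% of gene-desert peaks footprinted in the lowest decile and 95.7% and 95.6% in the fifth.

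**Figure D2:**
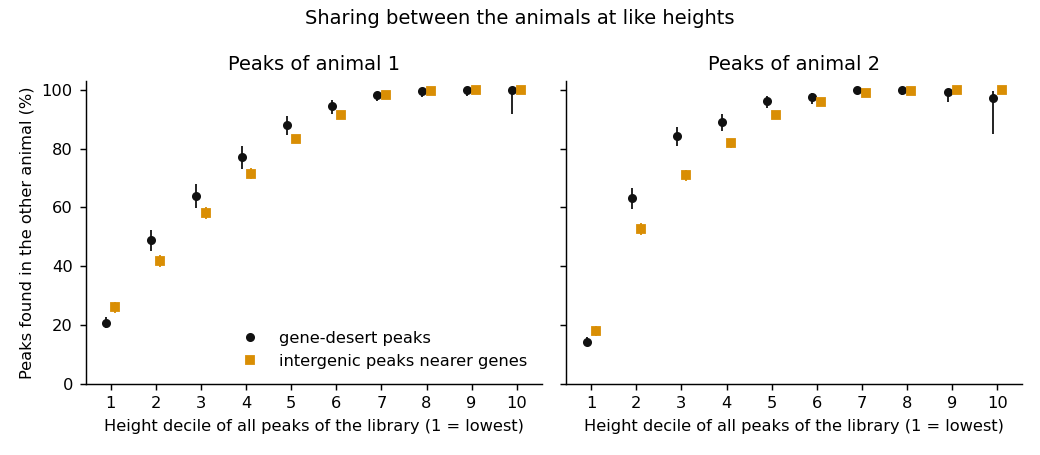
Percent of peaks that overlap a peak of the other animal, by decile of height over all peaks of the library, for gene-desert peaks and for intergenic peaks nearer to genes; lines are Wilson 95% intervals for counting error. In the fifth decile 88.2% and 96.3% of gene-desert peaks were shared, against 83.3% and 91.4% of the nearer ones.

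Peaks of 1 animal only were also compared with shared ones by sequence and position. In animal 2 the 2312 gene-desert peaks absent from animal 1 had a median GC content of 56.1%, against 51.1% for the 2917 shared ones, and a median soft-masked (repeat) share of 23.4%, against 1.5%. They lay farther out, at a median of 293 kb from a coding TSS, against 179.5 kb. The PU.1 consensus was in 1.86% of them, against 6.51% of the shared ones, and the CTCF consensus in 4.11%, against 15.1%. In animal 1 the 2148 peaks absent from animal 2 had a median GC content of 50.4%, against 50.5% for the shared ones, and a median soft-masked share of 6.90%, against 6.76%. They lay at a median of 214 kb, against 179 kb. The PU.1 consensus was in 5.59% of them, against 6.71%, and the CTCF consensus in 3.58%, against 14.998%. Of these private peaks, 23 in animal 1 and 10 in animal 2 were above the median height of all peaks of their library. Their median heights were 0.287 and 0.265, against 0.695 and 0.740 for the shared ones. Private and shared intergenic peaks nearer to genes also differed. In animal 2 their GC content was 54.5% against 52.2%, PU.1 2.63% against 6.26% and CTCF 10.3% against 22.1%. In animal 1 their CTCF share was 6.18% against 22.1%, but their PU.1 share 7.55% against 6.19%.

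The 12 highest matched gene-desert peaks were above the upper quartile of promoter peaks, which was 5.67 in animal 1 and 6.62 in animal 2. The maximum was a peak from 39846781 to 39846920 on chromosome 17, at 58.7 in animal 1 and 32.8 in animal 2, 107 bp from the start of the long non-coding RNA gene Gm42418. A peak from 5860361 to 5860530 on chromosome 3 followed at 32.1 and 16.6. The median 32-mer of these peaks occurs 2 and 7 times in the genome, so their heights cannot be given to 1 copy. The same holds for a peak 153 bp from the pseudogene Gm21769 on chromosome 8, at 15.1 and 19.99, whose median 32-mer occurs 2 times.

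Among peaks whose median 32-mer occurs once, the first was at the start of Zswim6 on chromosome 13, from 107890181 to 107890360, with heights of 16.7 and 20.7. Zswim6 encodes a zinc finger protein, but the annotation used lists it as a processed transcript and not as protein-coding, which brings its promoter inside the rule. A second peak 587 bp from that start stood at 9.20 and 10.1. The next was 255 bp from the start of Gm20732, a long non-coding RNA gene beside Zfat, a zinc finger gene of lymphocytes, with 16.3 and 17.7. The starts of Gm26901 (13.6 and 16.1), Lncpint (8.77 and 10.5) and Dubr (8.60 and 10.4), all long non-coding RNA genes, were in the same group of 12. In each of these pairs the values are heights in animal 1 and animal 2.

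Other high sites had no annotated start within 1 kb. The Btg1 to Dcn site printed above stood at 15.3 in animal 1 and 15.9 in animal 2, 134 kb from Btg1, an antiproliferative gene active in lymphocytes, with 5 and 3 footprints. A second site on the other side of Btg1, 360 bp wide in animal 1, reached 11.9 and 9.71. The Tgfbr2 to Rbms3 site reached 10.5 and 13.3, 209 kb from Tgfbr2, the type II receptor of TGF-beta. The Lrig3 to Atp23 site reached 8.19 and 12.6, and its 32-mers occur at most 2 times in the genome. The Cntnap5b to Cdh20 site reached 10.6 and 8.63 although its nearest coding TSS is 2140 kb away, the farthest of all matched gene-desert peaks. The next farthest, between Pcdh20 and Pcdh9 at 1824 kb, stood at 0.530 and 0.781. Its median 32-mer occurs 4 times in the genome, so its height cannot be given to 1 copy. The 32-mers of the Cntnap5b to Cdh20 site occur at most 6 times.

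A minority of the gene-desert peaks lay at the start of a gene that is not protein-coding. Within 1 kb of such a start were 522 peaks in animal 1 (10.3%) and 512 in animal 2 (9.79%). Starts of long non-coding RNA genes held 263 and 242 of them, with median heights of 0.659 and 0.815, against 0.437 and 0.428 for gene-desert peaks with no start of any gene within 1 kb. Immunoglobulin V segments held 127 and 88, pseudogenes 59 and 87, and T cell receptor V segments 24 and 23. Bodies of non-coding genes held 1040 and 980 gene-desert peaks. Gm14005 on chromosome 2 held 23 and 18, Lncpint held 20 and 20, and Pvt1, the long non-coding RNA gene next to Myc, held 18 and 17.

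Gene-desert peaks occurred in 1101 of the gaps in animal 1 and 1140 in animal 2. The 30 richest gaps between coding genes, picked for their counts, had 3.66% of the territory and held 19.3% of the gene-desert peaks of animal 1 and 16.8% of those of animal 2. Leaving aside antigen receptor loci, the gap from Foxo1, a transcription factor of B cell development and naive lymphocytes, to Cog6 came first with 46 peaks in animal 1 and 44 in animal 2 in 0.526 Mb of territory. In each animal 37 of them were also found in the other. The gap from Cd83, an activation marker of B cells and dendritic cells, to Jarid2 held 44 and 32 peaks. The gap from Myc, the growth regulator, to Gsdmc held 41 and 34. The gap from Id2, an inhibitor of E proteins that innate lymphoid and NK cells need, to Rnf144a held 35 and 29, as did that from Gadd45g to Diras2.

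Gaps beside Tle3, a corepressor gene (29 and 29), and beside Ebf1, the factor that specifies B cells (30 and 27), followed, and the ends of chromosome 3 (1 and 56) and chromosome 4 (30 and 27) have the same mean count as Ebf1. Per Mb the Uaca to Tle3 gap reached 94.7 peaks in each animal, against 6.06 and 6.27 over all deserts. Some gaps were denser. The gap from Ly86 to Rreb1 had 129 and 98.7 per Mb. The end of chromosome 4 had 1732 and 1559 per Mb, in only 0.0173 Mb. Further down by count were the gaps from Ly86 to Rreb1 (30 and 23), from Zeb2 to Acvr2a (27 and 25), from Bcl11a (30 and 20) and from Cetn3 to Mef2c (22 and 25). These pairs are peak counts in animal 1 and animal 2. At the other extreme, 1.06 Mb of desert between Dok5 and Cbln4 on chromosome 2 held no peak in either animal.

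**Figure D3:**
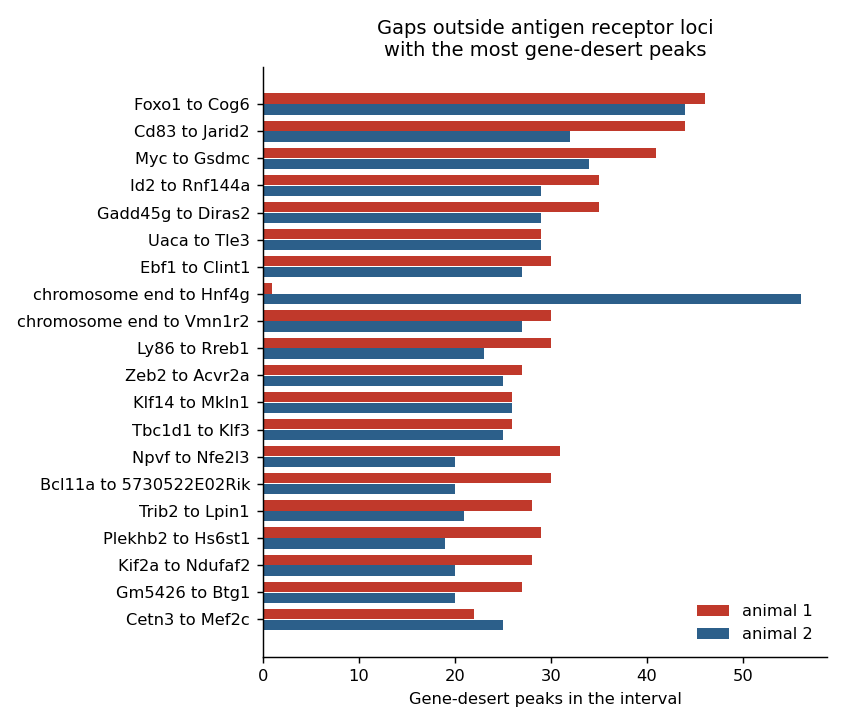
Number of gene-desert peaks in each animal for the 20 gaps between neighbouring protein-coding genes with the most such peaks (mean of the animals), leaving out gaps with immunoglobulin or T cell receptor genes. The Foxo1 to Cog6 gap leads with 46 and 44 in animals 1 and 2, and the gap from the end of chromosome 3 to Hnf4g had 1 and 56.

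Deserts beside regulators of B, T and NK, myeloid and dendritic, and stem, erythroid and megakaryocyte cells held more peaks per Mb than all deserts. The gene lists were chosen with earlier results of these data known. Some of the richest gaps named above, as that of Foxo1, recur in them, so the densities are description only. Peaks beside 10 flanking genes of B cell regulators numbered 158 in animal 1 and 144 in animal 2. Of these, 46 and 44 lay beside Foxo1, 30 and 27 beside Ebf1 and 30 and 20 beside Bcl11a. Their median heights were 0.852 and 0.849. The density there was 29.5 peaks per Mb in animal 1 and 26.9 in animal 2. Over 10 genes of T and NK cell regulators it was 14.8 and 14.4 per Mb, led by Id2, Ets1 and Satb1. Over 5 genes of myeloid and dendritic regulators it was 12.2 and 10.4, led by Zeb2, Klf4 and Maf. Over 6 genes of stem, erythroid and megakaryocyte regulators it was 20 and 14.4. Of the 128 and 92 peaks of this list, 59 and 50 lay beside Myc and 30 and 20 beside Bcl11a. Meis1, a homeobox gene of stem cells, had 19 peaks in animal 1 and 7 in animal 2. Some gaps count for more than 1 list, as that of Bcl11a does.

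Pooled over each list, deserts beside developmental, growth factor and neuronal genes were sparser than all deserts. Endothelial and stromal regulators, with 9 flanking genes, had 6.52 and 6.86 peaks per Mb, slightly above the 6.06 and 6.27 of all deserts. Over 41 flanking genes of developmental transcription factors the density was 5.31 and 4.82 per Mb, and over 24 growth factor genes 4.77 and 4.70. Over 29 neuronal adhesion and synapse genes, whose deserts are long, it was 1.72 and 2.72 per Mb. Their peaks were the lowest of all lists, with median heights of 0.236 and 0.272, and 28.3% and 17.9% of them were found in the other animal. Chemokine and cytokine genes had 25.3 and 27.0 per Mb in only 0.593 Mb of territory, and 11 of their 15 peaks in animal 1 and 11 of 16 in animal 2 lay beside Ifng, the interferon gamma gene.

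Antigen receptor loci entered the rule because their gene segments are not annotated as protein-coding. The 5 gaps with immunoglobulin genes held 204 peaks in animal 1 and 192 in animal 2, a density of 35.4 and 33.3 per Mb, and the 3 gaps with T cell receptor genes held 41 and 40. The heavy chain V region, between Adam6a and Zfp386 on chromosome 12, had 77 and 83. The alpha and delta T cell receptor locus, between Olfr1507 and Dad1, had 38 and 37. Without the receptor gaps the density was 5.82 and 6.05 per Mb. Repeated sequence, counted as above, was commoner in the receptor gaps. It made up 25.5% of the immunoglobulin gap peaks in animal 1 and 18.2% in animal 2. In the T cell receptor gaps it made up 39.0% and 42.5%, against 4.51% and 6.38% in other deserts. Such peaks need not belong to the site named, and the receptor gap densities were not counted without them.

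The octamer was common in the peaks closest to immunoglobulin V starts. Its share over V starts without a peak was not counted. Of gene-desert peaks within 200 bp of an immunoglobulin V start, 26 of 32 in animal 1 and 12 of 15 in animal 2 held ATGCAAAT on either strand in their central 200 bp, or 81.3% and 80%. Of those within 1 kb, 22.8% and 14.8% held it. In gene-desert peaks away from V starts it was in 2.23% and 1.34%, and over all peaks of the libraries in 1.81% and 1.42%. At the kappa V segment start printed above, the height was 3.63 in animal 1 and 1.51 in animal 2. The CTCF consensus was in 14 of 41 peaks of the T cell receptor gaps in animal 1 and 15 of 40 in animal 2, or 34.1% and 37.5%. In the immunoglobulin gaps it was in 14.7% and 19.3%, in other deserts in 9.75% and 9.67%, and over all peaks in 12.3% and 13%. The CTCF shares of the receptor gaps include their many peaks of repeated sequence and were not counted without them.

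Gene-desert peaks formed fewer clusters than intergenic peaks nearer to genes. Clusters had gaps of at most 10 kb and at least 3 peaks. They held 28.5% of the gene-desert peaks in animal 1 and 24.3% in animal 2, against 43.9% and 42.9% of the nearer intergenic peaks. Neighbouring gene-desert peaks were a median of 35.1 and 52.8 kb apart, against 13.6 and 14.4 kb for the nearer ones. The same 10 kb was used for both, and the part of this wider spacing in the lower share was not tested. Clustered gene-desert peaks were higher than the others, with medians of 0.738 and 0.740, against 0.372 and 0.367. They were also shared more often, at 69.1% and 70.9% against 52.9% and 50.9%. The CTCF consensus went the other way, with 6.03% and 6.21% in clusters against 11.8% and 11.5% outside. It did so in intergenic peaks nearer to genes as well, at 12.1% and 13.4% against 23.0% and 24.5%. Clustered peaks there were also higher, at 1.02 and 1.13 against 0.695 and 0.869. Their shared percentages were 76.5% and 78.6% against 75.3% and 81.1%.

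The largest clusters were of 2 kinds. Some held high peaks found in both animals. A cluster of 28.0 kb between Tbc1d1 and Klf3, a repressor gene of B cells and erythroid cells, had 11 peaks in animal 1 and 13 in animal 2, with highest values of 6.17 and 7.25. One between Agtr1b and Tbl1xr1 had 11 and 12, and one between Foxo1 and Cog6 had 12 and 11.

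The others were dense runs of low peaks. At the start of the sequenced part of chromosome 4, from 3050048 to 3067240, there were 30 and 27 peaks with median heights of 0.158 and 0.210. At the start of chromosome 3, from 3000081 to 3032500, there were none in animal 1 and 55 in animal 2, with a median of 0.143. Between Tmem121 and Adam6b, in the heavy chain constant region, there were 2 and 32, and between Rtl1 and Dio3 there were none and 22. In those last 3 runs 55, 30 and 22 peaks of animal 2 overlapped no peak of animal 1. Local repeats were dense in the runs on chromosomes 3 and 4, where a median of 22.6% and 29.6% of the 12-mers in 1 kb occurred more than once in it, but not in the pair on chromosome 12, at 0.404% and 1.16%. The part of low runs in the other differences between the animals was not tested.

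Among motifs found in over 10 gene-desert peaks of each animal, CTCF had the widest ratio to the DNA around the peaks, at 14.1 and 12.6 times. Its consensus lay in the central 200 bp of 10.1% of the gene-desert peaks of animal 1 and 10.2% of those of animal 2, against 0.722% and 0.813% of windows 1 kb to either side. Over all peaks the shares were 12.3% and 13%, and in intergenic peaks nearer to genes 18.2% and 19.7%. In gene-desert peaks that hold a footprint, 333 of 450 matches in animal 1 and 414 of 496 in animal 2 had at least 50% of their bases in one, or 74% and 83.5%, while 13.7% and 16.7% of the bases of those peaks were footprinted. In intergenic peaks nearer to genes the same shares of matches were 88.7% and 94.2%.

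Motifs of blood cell factors and the GC box were compared in the same way. The PU.1 consensus GAGGAAGT was in 6.23% and 4.46% of gene-desert peaks, against 1.22% and 1.17% of their flanks and 5.61% and 4.65% of all peaks. The RUNX consensus TGTGGTT was in 9.10% and 6.88%, against 4.36% and 4.44% of flanks and 6.77% and 5.91% of all peaks. The GC box of KLF and SP factors, GGGCGG, was in 7.60% and 9.20%, against 2.26% and 1.92% of flanks and 21.5% and 24.3% of all peaks. The E-box CAGGTG of E2A was in 17.8% and 23.0%, against 12.2% and 12.7% of flanks and 18.3% and 19.5% of all peaks. The GATA consensus AGATAA was rarer in gene-desert peaks than beside them, at 7.46% and 5.76% against 13.1% and 13.3%, with 5.82% and 4.99% over all peaks. Matches of PU.1 lay in footprints in only 21.7% and 15.1% of cases.

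The remaining motifs varied in their ratio to the flanks. The motifs of AP-1 (TGANTCA), IRF (GAAA, 2 free bases, GAAA), MEF2 (CTA, 4 free bases, TAG), C/EBP (TTGCNNAA) and NF-Y (CCAAT, 1 free base, A, 2 free bases, G) were between 0.805 and 1.27 times as frequent in gene-desert peaks as in their flanks, and that of PU.1 with IRF (GGAA, 2 free bases, GAAA) 1.83 and 1.28 times. The octamer was 1.66 times as frequent in animal 1 and 0.982 times in animal 2. The motif of NF-kB (GGGA, 1 free base, T, 2 free bases, CC) was 2.48 and 2.04 times and that of EBF (TCCC, 2 free bases, GGGA) 2.65 and 2.61 times as frequent. The motifs of ETS factors (CCGGAAGT), CRE factors (TGACGTCA) and NRF1 (GCGC, AT and GCGC in 1 run) each had at most 32 gene-desert peaks with a match, ETS 32 and 29, at 4.57 and 4.83 times the share of the flanks. All were read on both strands, several overlap in part, and a match describes letters and not a bound protein.

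**Figure D4:**
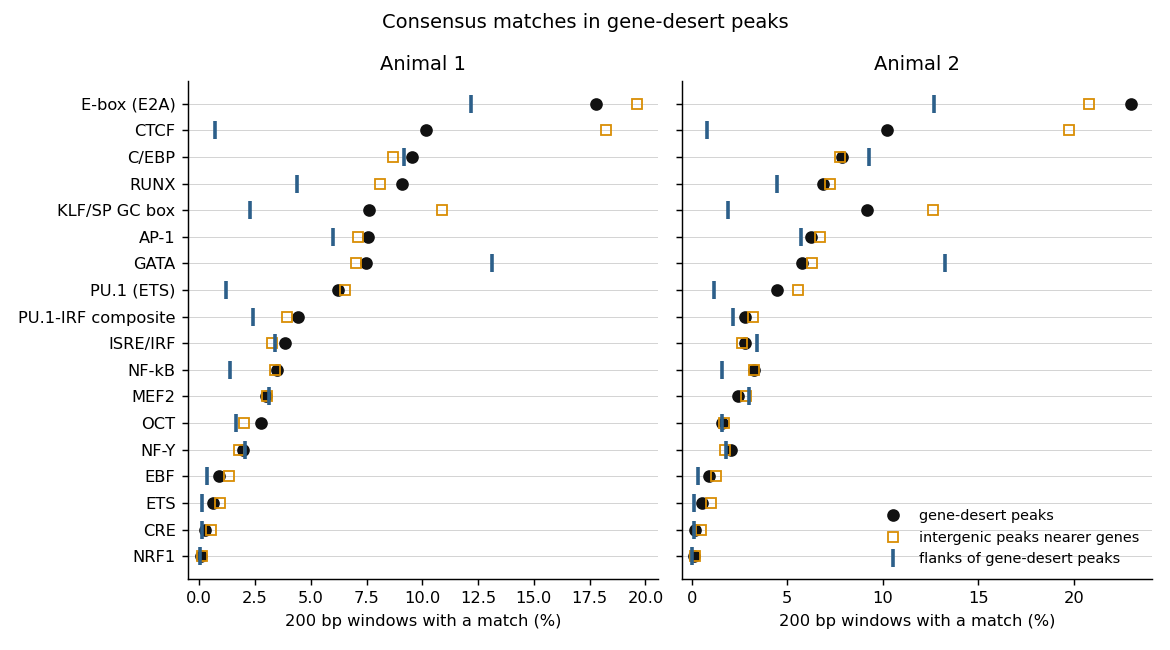
Percent of 200 bp windows with a match to each of 18 consensus sequences in gene-desert peaks, in intergenic peaks nearer to genes and in windows 1 kb to either side of gene-desert peaks, for each animal. CTCF shows a wide gap between gene-desert peaks (10.1% and 10.2%) and their flanks (0.722% and 0.813%).

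The heights of matched sites were close in the 2 spleens. Of the gene-desert peaks, 2849 matched 1 to 1, and the median log2 ratio of animal 1 over animal 2 was -0.11 (SD 0.48 across peaks). All other matched peaks had a median of -0.23 (SD 0.40). A difference of over 2-fold was seen at 116 gene-desert pairs, or 4.07%, against 2.41% of all 58277 matched pairs. Across the gene-desert pairs, which share their libraries and are not replicates, Pearson's r of log2 height was 0.908 and Spearman's rho 0.876.

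Sites with the CTCF consensus leaned to animal 2, and those with the PU.1, PU.1 with IRF or octamer consensus to animal 1. This was looked at after the widest ratios had been seen, since 3 of the 5 largest in favour of animal 2 held the CTCF consensus and none of the 5 in favour of animal 1 did. The sites printed above stood at 0.673 in animal 1 and 2.10 in animal 2 (Tgfbr2 to Rbms3), at 0.702 and 1.90 (Sdk2 to Rpl38) and at 0.638 and 1.52 (Dusp10 to Hlx). Over the 434 matched gene-desert peaks with the consensus the median log2 ratio was -0.45, and 12% were higher in animal 1, against a median of -0.06 over the 2415 without it. For the PU.1 consensus the median was 0.13 over 191 pairs, for PU.1 with IRF 0.19 over 131 pairs and for the octamer 0.24 over 76 pairs. For the GC box it was -0.26 over 263 pairs. Other motifs of blood cell factors lay on both sides of 0. Medians were 0.08 for IRF, 0.03 for RUNX and 0.03 for AP-1. They were -0.13 for the E-box, -0.12 for NF-kB, -0.07 for EBF and -0.03 for C/EBP, against -0.11 for all pairs. In intergenic peaks nearer to genes some medians kept their signs, at -0.47 for CTCF, 0.07 for PU.1, 0.10 for PU.1 with IRF and 0.05 for the octamer. Those of IRF, RUNX and AP-1 did not, at -0.03, -0.04 and -0.14. All nearer intergenic pairs had a median of -0.22, so the medians of IRF, RUNX and AP-1 lay above that of their class, as in gene deserts. The cause was not tested.

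**Figure D5:**
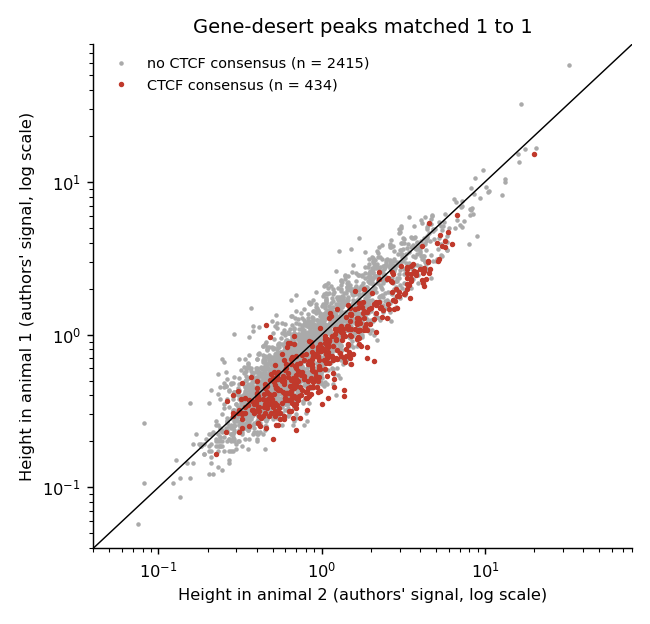
Height in animal 1 against height in animal 2 for the 2849 matched gene-desert peaks, both on log axes in the authors' signal; the line marks equal heights, and red points hold the CTCF consensus. Most of the 434 red points fall below the line, with a median log2 ratio of animal 1 over animal 2 of -0.45.

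The widest ratios in favour of animal 1 included a site between Rnf219 and Rbm26, at 3.53 in animal 1 and 1.28 in animal 2, whose median 32-mer occurs 7 times in the genome. A site 113 kb from Cxcr4, the chemokine receptor that retains leukocytes in marrow, stood at 4.26 in animal 1 and 1.69 in animal 2. In the gaps on either side of Btg1, a site whose nearest coding TSS is that of Gm5426 stood at 1.81 and 0.693, and one nearest to that of Dcn at 1.68 and 0.645. In favour of animal 2, a site between Smad3 and Smad6, genes of TGF-beta signalling, stood at 0.638 in animal 1 and 1.5 in animal 2. A site from 3115101 to 3115260 on chromosome 16 stood at 0.924 and 2.17, and its median 32-mer occurs 2 times. With the sites printed above, these are the 5 widest ratios in each direction among matched peaks whose mean height over the animals is above the median of all peaks. Several are below that median in the lower animal, and 1 animal stands on each side.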

How the data were processed

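DNase-seq peaks, footprints and cut-rate intervals of 2 spleens were used. The deposited listings say that every file was derived from reads of a single library on mm10. Names of the aligner and callers were not given in the sources used here. For each library the authors deposited a longer and a shorter peak list, whose height column is a signal with no stated unit; the longer list was used. The deposited footprint files hold positions and a constant p-value column of 0.01, and the deposited cut-rate files give an FDR (q-value) and list only intervals under 0.05. Total depth is not stated.

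Peaks were classified by midpoint with 21938 protein-coding genes of GENCODE M21. Promoter peaks lay within 1 kb of a coding TSS. A peak counted as shared when it overlapped a peak of the other animal by 1 bp, and as matched when each overlapped only the other. Sequence and 32-mer copy numbers came from the RefSeq copy of GRCm38.p6, whose chromosomes are those of mm10. Motifs were 18 consensus sequences searched on both strands in the 200 bp around a midpoint, with windows of equal size 1 kb to each side as flanks. Clusters joined midpoints at most 10 kb apart, with at least 3 peaks. The interval functions were tested on simulated data (6 of 6 checks passed). Python 3.11.15, numpy 2.4.6, pandas 2.3.3 and numba 0.67.0 were used.

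Loci were named by rule: the 12 highest matched peaks, over all and over sequence that occurs once, the 10 richest gaps, the 5 largest clusters, the 5 widest height ratios in each direction among pairs with a mean height above the median of all peaks, the 10 highest peaks at non-coding starts, the 3 farthest peaks, and up to 3 genes of each of 9 lists with 238 genes, all found in the annotation. Other loci named (the gaps of Ly86, Mef2c and Dok5, the run between Rtl1 and Dio3, the non-coding gene bodies and the sites called in 1 animal) were chosen after their values were seen. The members, gene lists and motifs were chosen with earlier results of these data known. No test was run over peaks. Alternatives are the shorter peak list, the higher 50% of peaks, other distances, other gene sets and TSS, leaving out repeats, receptor loci or an animal, and other overlap, gap and window sizes. One of the richest gaps is not reported here.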

Additional observations from a re-analysis of the deposited data

How the results depend on the processing

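In all 11 settings the median height of gene-desert peaks stayed below that of the other peaks, but most values moved by more than the spread between the animals. The values below are means of both animals. With the shorter peak list there were 2286.5 gene-desert peaks, a height ratio of 0.547, 74.9% shared, 90.7% footprinted and 15.8% with CTCF. With the higher 50% of the peaks these were 1039, 0.693, 80.4%, 97.8% and 16.9%. Over 50 kb in place of over 100 kb gave 8980, 0.511, 63.8%, 73.5% and 11.9%, with 32.6% in clusters. Over 200 kb gave 2546.5, 0.347, 47.7%, 60.2% and 9.12%, with 19.3% in clusters. Counting genes of any biotype left 664.5 peaks, 0.318, 42.3%, 55.3% and 8.64%, with 10.1% in clusters. Taking the most 5' TSS only gave 58.8% shared and 10.8% with CTCF. Requiring an overlap of 50% of the peak gave 52.3% shared. Cluster gaps of 5 and 25 kb gave 19.0% and 39.98% in clusters. CTCF was in 10.5% without multi-copy peaks, in 9.97% over the whole peak and in 9.71% without antigen receptor gaps, an alternative chosen after seeing the data. Leaving out either animal leaves the values of the other one alone. These were 5055 to 5229 peaks, ratios of 0.388 to 0.477 and 55.8% to 57.5% shared. They were also 66.4% to 69.0% footprinted, 24.3% to 28.5% in clusters and 10.1% to 10.2% with CTCF. The shared values still use the peaks of the animal left out, so this setting cannot test sharing. No paired analysis was possible because both animals belong to 1 group. Total depth is unknown and most gene-desert peaks are low, so absence from 1 list does not show that a site is closed.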

Other observations

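A few gene-desert peaks well above the median height were called in 1 animal only. The highest was a peak of animal 2 from 7397621 to 7397780 on chromosome 1, at 7.16, 94 bp from the start of Gm26901, followed by one of 5.47 at the start of Lncpint. Both lie beside peaks that the animals share. Over 1 kb from any start, the highest of animal 1 lay between Gadd45g and Diras2, from 52279381 to 52279600 on chromosome 13, at 1.79. Those between Myom2 and Csmd1, whose median 32-mer occurs 7 times in the genome, between Glrx3 and Tcerg1l and between Foxo1 and Cog6 stood at 1.46, 1.35 and 1.27. Of animal 2, one beside Cxcl12, a chemokine gene of stromal cells, stood at 1.32 and one between Myc and Gsdmc at 1.24.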
